A study of Mus musculus with 24 samples.

Results

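VC-1 is 1 of the 43 neuron populations that the authors named in the lumbar spinal cord of the mouse, and 1 of the 2 that carry the code VC. Its members are the 181 nuclei whose deposited cell type is VC-1, out of 18000 barcodes, 7103 neuronal nuclei and 4280 neurons placed in a population. The mice were ICR/CD-1, an outbred stock, of both sexes and 8 to 11 weeks of age. Their nuclei were read by Drop-seq, which captures single nuclei in droplets and marks every RNA molecule with its own identifier (UMI). The 24 mice were 9 controls, 10 mice given 30 µl of 2% paraformaldehyde (the formalin test of pain) in the sole of both hindpaws, and 5 mice run on a rotarod that accelerated to 40 rotations per minute over 5 minutes. The labels name no allele or transgene in any group, and treated mice had an hour of habituation first. The tissue field reads brain, but the extraction protocol describes the lumbar cord without its dorsal root ganglia.

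Acetylcholine in the spinal cord is made by motor neurons, which send axons to muscle or to autonomic ganglia, and by smaller sets of interneurons. Choline acetyltransferase (Chat) makes the transmitter and the high-affinity choline transporter (Slc5a7) takes choline back into the terminal. Among the interneurons, some give large cholinergic synapses on motor neurons, and other cholinergic cells lie around the central canal and in the dorsal horn. Motor neurons are told apart by the intermediate filament peripherin (Prph), the LIM factors Isl1 and Mnx1 and other genes.

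VC-1 nuclei came from all 24 mice, at 1 to 20 nuclei a mouse, and 21 mice gave the 3 nuclei needed to enter the tests. A VC-1 nucleus held a median of 3038 UMIs (lowest 1055, highest 10290), and the population held 625992 UMIs in all. Median depth was 3121 UMIs in VC-2 (126 nuclei), 3142 in VI (612), 6192.5 in VE (416) and 6829 in VM (109). Of 19 barcode sequences found in more than 1 library, none was carried by a VC-1 nucleus. Total UMIs per mouse ran from 549903 to 3243587. The summed level of 9 oligodendrocyte markers was 1165 UMIs per 1000000 UMIs (CPM) in VC-1, 1197 in VC-2, 722 in VE, 1282 in VI and 910 in VM, against 17973 in oligodendrocytes. Over mice it ran from 209 to 2344 in VC-1 and from 138 to 1481 in VE. The 8 astrocyte markers summed to 137 CPM in VC-1 against 5503 in astrocytes, and the 4 ependymal markers were at 0.

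The cholinergic markers were detected in VC-1, at a low level. Chat had 23 UMIs in VC-1, in 15 nuclei of 12 mice, a pooled level of 36.7 CPM. It reached 94.1 CPM in VC-2, 28.5 in VM, 6.78 in VI and 4.92 in VE. Slc5a7 had 18 UMIs in 11 nuclei of 10 mice, 28.8 CPM, against 64.0 in VC-2, 19.0 in VM, 4.61 in VE and 2.91 in VI. VC-1 ranked second of 43 populations for both genes, after VC-2. The VC-2 level was 2.56 times that of VC-1 for Chat (95% counting interval 1.52 to 4.42) and 2.23 times for Slc5a7 (1.21 to 4.21), while VC-1 stood 7.47 times above VE (3.78 to 15.1) and 5.42 times above VI (2.87 to 10.3) for Chat. The interval of VC-1 over VM included 1 for both genes (0.696 to 2.39 for Chat and 0.729 to 3.17 for Slc5a7). These intervals cover counting error only, and the populations were themselves defined from these counts.

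Both genes are on GRCm38, Chat on the minus strand of chromosome 14 from 32408203 to 32465989 and Slc5a7 on the minus strand of chromosome 17 from 54273590 to 54299034 (GENCODE M21). Their promoters are shown because these are the 2 marker genes of the population. Each is the RefSeq stretch before the start site (GRCm38.p6), cut where GENCODE places the gene, at chr14:32465990-32466159 (170 bases) for Chat and chr17:54299035-54299284 (250 bases) for Slc5a7. Capitals mark the E-box CAGCTG, which reads the same on both strands.
Chat: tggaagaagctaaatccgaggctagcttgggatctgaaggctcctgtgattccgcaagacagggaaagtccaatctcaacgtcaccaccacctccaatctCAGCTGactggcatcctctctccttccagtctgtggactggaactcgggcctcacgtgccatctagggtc
Slc5a7: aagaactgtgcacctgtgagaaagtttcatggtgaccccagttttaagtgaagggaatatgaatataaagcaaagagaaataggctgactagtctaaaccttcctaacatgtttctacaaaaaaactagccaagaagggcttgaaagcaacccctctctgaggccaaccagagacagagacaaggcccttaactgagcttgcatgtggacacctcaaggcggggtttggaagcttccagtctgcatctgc
Chat held 1 CAGCTG in its 170 bases and Slc5a7 held 0 in its 250. Of 32851 mouse promoters, 13% held at least 1 in the 250 bases before the start, a longer stretch than that of Chat. A second motif, TAATCC, was also counted, with 0 in both genes against 6.25% of those promoters.

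Few VC-1 nuclei held a cholinergic UMI at this depth. A UMI of Chat or Slc5a7 was seen in 23 of 181 VC-1 nuclei (12.7%, 95% Clopper-Pearson interval 8.23 to 18.45), in 16 of 24 mice. The share was 27.8% in VC-2 (20.2 to 36.5), 10.1% in VM (5.15 to 17.3), 4.81% in VE (2.96 to 7.33), 2.29% in VI (1.26 to 3.81) and 1.01% in oligodendrocytes (0.632 to 1.52), which should lack both genes and held a median of 1092 UMIs. Thinned to 1000 UMIs a nucleus, the shares were 4.42% in VC-1 (1.93 to 8.52), 12.7% in VC-2 (7.44 to 19.8), 0.961% in VE, 1.14% in VI and 0.587% in oligodendrocytes (0.236 to 1.205), and 0 of 109 in VM, which allows up to 2.75% at a limit of 3 counts (exact 95% upper bound 3.33%). Thinning left out 991 oligodendrocytes and no nucleus of the ventral populations. The VC-1 share stood above the oligodendrocyte share on both scales.

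Of the VC populations, Pax2 was counted mainly in VC-1 and peripherin in VC-2. Pax2, a factor of many inhibitory interneurons, had 45 UMIs in 22 nuclei of 13 mice in VC-1 and 2 UMIs in VC-2, a ratio of 17.96 (4.69 to 153). Its VC-1 level of 71.9 CPM was close to that of VM (76.0) and below that of VI (105).

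Prph went the other way. It had 1 UMI in VC-1, in control replicate 7, and 37 UMIs in VC-2, in 20 nuclei of 13 mice (1.60 against 74.1 CPM). Creb5, a transcription factor listed here with gamma motor neurons, had 8 UMIs against 134, and Rxfp1, the relaxin receptor listed with visceral motor neurons, had 14 against 97. Isl1 had 10 UMIs in 3 of 181 VC-1 nuclei (1.66%, 0.343 to 4.77) and 9 UMIs in 8 of 126 VC-2 nuclei (6.35%, 2.78 to 12.1). Of the 10 VC-1 UMIs, 8 lay in 1 nucleus of control replicate 3. The median over mice in VC-1 was 0 CPM for Prph, Creb5, Rxfp1 and Isl1 and 14.7 CPM for Pax2. At 3 to 20 nuclei a mouse, the levels of single mice are steps of 1 or a few molecules, and 11 of the 45 Pax2 UMIs lay in control replicate 6.

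**Figure D1:**
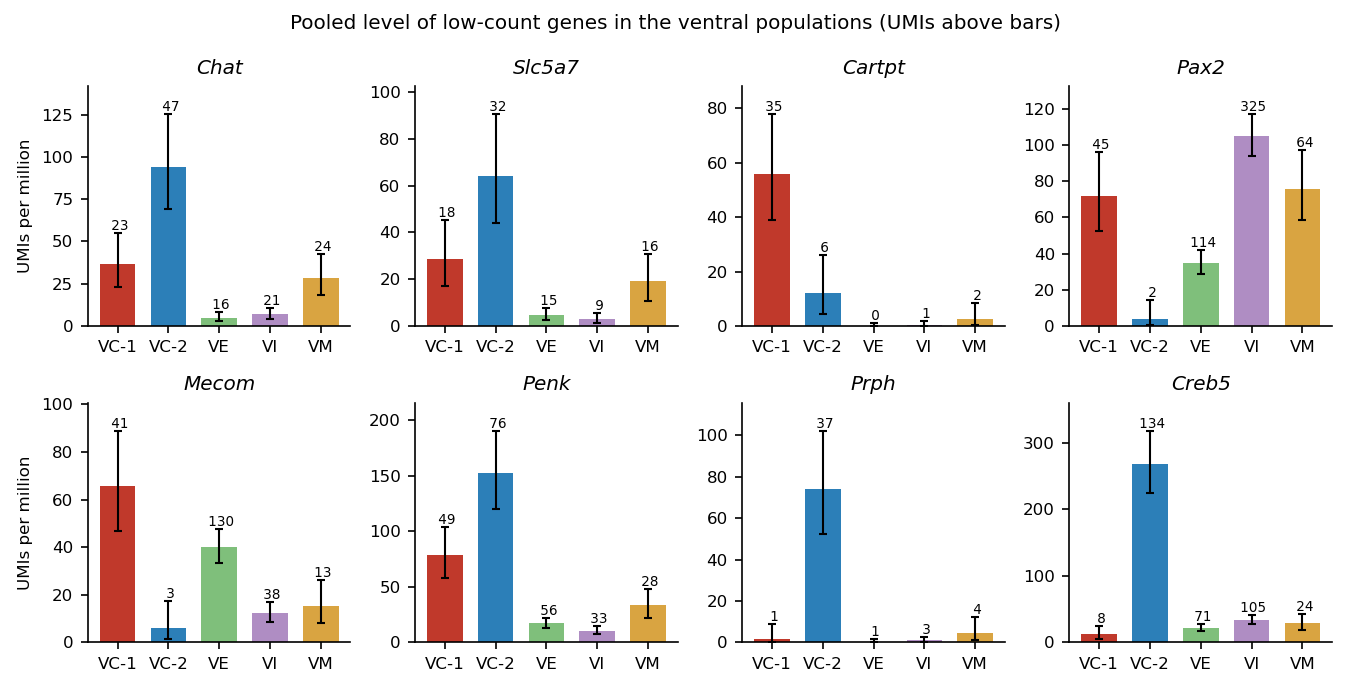
Pooled level in UMIs per 1000000 UMIs (linear axis) of 8 low-count genes in VC-1, VC-2 and the VE, VI and VM families, over all nuclei of each. Error bars are exact 95% Poisson intervals and the number above each bar is its UMIs. Cartpt and Mecom are highest in VC-1 of these 5, Chat, Slc5a7, Penk, Prph and Creb5 in VC-2, and Pax2 in VI.

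Of 27 measured neuropeptide genes, 1 passed the filter on low counts described below and it was not called in any of the 4 comparisons, so the peptide genes here are given by their counts. Cartpt, the precursor of the CART peptides, had 35 UMIs in 12 nuclei of 10 mice, 55.9 CPM and the highest level of the 43 populations. It had 6 UMIs in VC-2, 0 in VE, 1 in VI and 2 in VM. The ratio over VC-2 was 4.66 (1.94 to 13.5), and 13 of the 35 UMIs lay in control replicate 8. Penk, the enkephalin precursor, had 49 UMIs in 26 nuclei (78.3 CPM), against 152 CPM in VC-2, 33.2 in VM, 17.2 in VE and 10.7 in VI. In a fit without that filter, Cartpt and Penk were called higher in VC-1 than in VE and VI (edgeR, with adjusted p = 1.84e-05 and 3.00e-09 for Penk). Cartpt was also called higher than in VM. That fit called 3 of 27 neuropeptide genes higher against VE, 3 against VI and 1 against VM. Among all its genes, 0.606%, 0.637% and 0.053% were called higher. Mecom, a zinc-finger factor, had 41 UMIs in 14 nuclei of 11 mice in VC-1 and 3 in VC-2, a ratio of 10.9 (3.48 to 55.1). Trhr, the receptor of thyrotropin-releasing hormone, had 31 against 2.

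Transmitter genes other than acetylcholine's were mixed within VC-1. Slc17a6, the vesicular glutamate transporter of spinal excitatory neurons, had a UMI in 52 of 181 nuclei, the glycine transporter Slc6a5 in 14 and the GABA-synthesising enzyme Gad2 in 21. Slc17a6 stood at 102 CPM in VC-1, 86.1 in VC-2, 84.8 in VE and 33.6 in VI. Slc6a5 stood at 31.9 CPM, against 154 in VI, 81.9 in VM, 35.9 in VE and 6.005 in VC-2.

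No VC-1 nucleus held both Chat and Slc17a6, and 2 held both Slc5a7 and Slc17a6. Chat and Slc6a5 met in 4 nuclei and Chat and Pax2 in 6. The 23 nuclei with Chat or Slc5a7 were deeper, with a median of 5061 UMIs against 2893.5 in the other 158. Among the 23, Pax2 was seen in 9, Cartpt in 7 and Slc17a6 in 2; among the 158 these counts were 13, 5 and 50. In CPM, Pax2 stood at 217 against 40.7, Cartpt at 199 against 25.2, and Slc17a6 at 27.2 against 118. The split is by measured counts of the same nuclei and no test was made of it.

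Genes detected well enough for a test were compared next, with the summed counts of each mouse as the unit and the mouse as a block. The test covered 1528 genes, and a gene is called where its Benjamini-Hochberg adjusted p in edgeR's quasi-likelihood test is under 0.05. Fold changes are log2 with the standard error (SE). The labels were made from the same counts, so these calls describe how the labelled nuclei differ and are not independent evidence that the populations are distinct. None of the 8 measured cholinergic genes passed the filter on low counts. In such sums, fewer nuclei with a gene and less of its RNA per nucleus cannot be told apart.

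Between the VC populations, 56 genes were higher in VC-1 (3.66%) and 67 lower (4.38%), 8.05% in all, in 21 mice with VC-1 and 16 with VC-2, 16 of them with both. Dscaml1, a cell adhesion molecule, ran from 0 to 451 CPM over mice in VC-1 (median 163) and from 0 to 176 in VC-2 (median 0). Most VC-1 values lay above most VC-2 values, with overlap at 0. The log2 fold change was 2.81 (SE 0.48), and VC-1 was higher in 12 of 16 mice. Adarb2, a brain-specific relative of the RNA-editing deaminases, ran from 0 to 3403 CPM in VC-1 (median 696) and from 0 to 515 in VC-2 (median 121), and was higher in VC-1 in 14 of 16 mice (2.18, SE 0.49). Meis2, a homeobox factor, ran from 0 to 838 (median 399) and from 0 to 259 (median 44.6), and was higher in 13 of 16 (2.01, SE 0.40). The serotonin receptor Htr4 (2.02, SE 0.47), Mpped2 (1.88, SE 0.39), the follistatin-like Fstl4 (1.49, SE 0.35), the ubiquitin ligase Rnf220 (1.34, SE 0.39) and the potassium channel partner Dpp10 (1.34, SE 0.19) completed the largest rises. Dpp10 overlapped least, at 283 to 1778 CPM against 0 to 640, and was higher in 15 of 16 mice.

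The largest fall was that of Fbn2, a fibrillin of extracellular microfibrils that is listed here with visceral motor neurons. It ran from 0 to 163 CPM in VC-1 (median 52.8) and from 0 to 1492 in VC-2 (median 293), and was lower in VC-1 by 2.86 (SE 0.42) on the log2 scale. Fgf13, an intracellular partner of sodium channels, ran from 0 to 348 (median 101) against 64.7 to 1096 (median 370), and VC-1 was higher in 0 of 16 mice (-1.79, SE 0.26). The guidance cue Slit3 ran from 0 to 841 (median 158) against 0 to 1536 (median 777), at -1.92 (SE 0.33). Prune2 (-1.92, SE 0.23), the semaphorin Sema5a (-1.88, SE 0.36), the kainate receptor subunit Grik1 (-1.38, SE 0.30) and the heavy neurofilament Nefh (-1.37, SE 0.34) were other large falls. Grik1 had a median of 455 CPM in VC-1 and 1406 in VC-2 over mice, with ranges that overlapped.

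**Figure D2:**
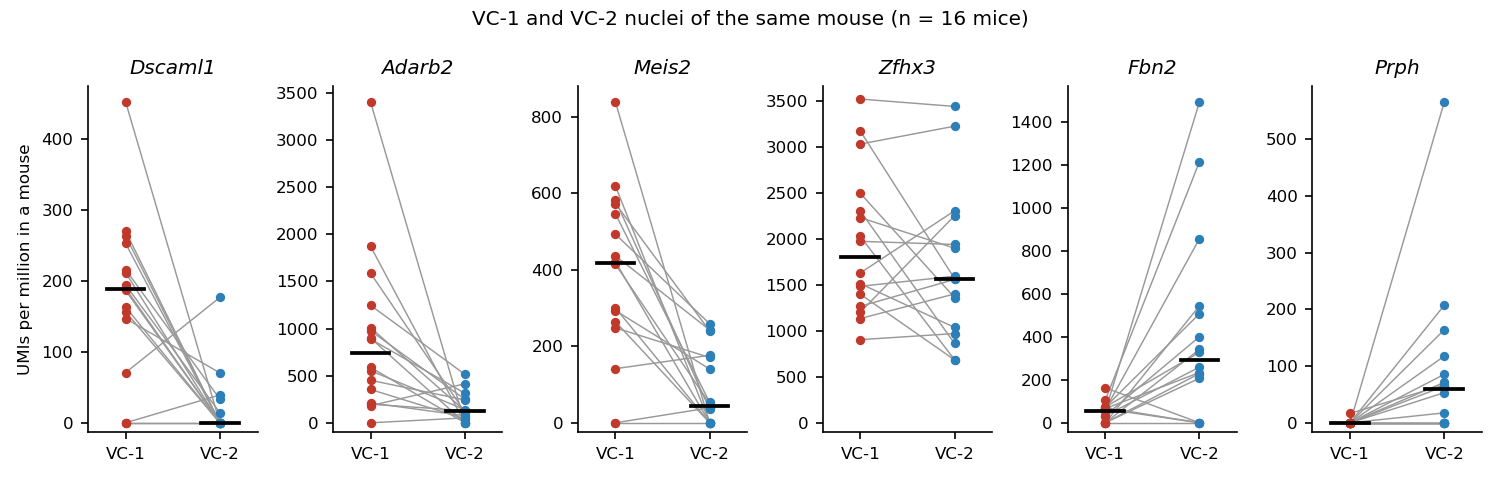
UMIs per 1000000 UMIs in VC-1 and VC-2 nuclei of the 16 mice with at least 3 nuclei of each, for 6 genes (linear axes). Each line joins the values of 1 mouse and black bars are medians. Dscaml1, Adarb2 and Meis2 are higher in VC-1 in most mice, Fbn2 and Prph in VC-2, and Zfhx3 overlaps fully.

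Few motor neuron genes could be tested between VC-1 and VC-2, where 3.66% of all genes tested were higher and 4.38% lower. Of 19 motor neuron identity genes, 2 passed the filter and both fell, Slit3 and Slit2 (-0.95, SE 0.27). Of 14 visceral motor neuron genes, 3 were tested and 2 fell, Fbn2 and Zeb2 (-1.12, SE 0.37). Of 19 neurofilament and axon genes, 11 were tested, 0 rose and 4 fell, with a median of -0.335 against 0.01 for all genes tested. The 4 were Nefh, Nefm (-0.69, SE 0.21), the axonal kinesin Kif1a (-0.58, SE 0.19) and the microtubule protein Map1b (-0.48, SE 0.14). The Nefm, Kif1a and Map1b calls were lost without the filter, in control mice alone and with at least 5 nuclei a sum. The Zeb2 call was lost without the filter and in control mice alone. In the 16 alpha and 13 gamma motor neuron genes, 5 and 2 were tested and none was called. Cholinergic interneuron genes gave 3 tested of 10, with 1 higher, Mpped2, and 1 lower. Of 44 ventral lineage factors, 7 were tested, with 1 higher, Zfhx4 (1.26, SE 0.33), and 3 lower, among them Tshz2 (-1.003, SE 0.19) and Ebf1 (-0.95, SE 0.28). Of the called genes named in this paragraph, Slit3, Fbn2, Nefh and Mpped2 kept their call in every alternative fit that tested them. The others lost it in some.

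Glutamate receptors moved in both directions, 4 of 18 tested up and 4 down (2 and 4 of 25 without the filter). Of all genes tested with the filter, 3.66% were higher in VC-1 than in VC-2 and 4.38% lower. Higher in VC-1 were the NMDA core subunit Grin1 (0.81, SE 0.17) and the AMPA subunits Gria1 (0.62, SE 0.19), Gria3 (0.60, SE 0.17) and Gria4 (0.42, SE 0.12). The Gria1 call was lost with VC-1 and VC-2 alone in the fit, with at least 5 nuclei a sum, without the cx control mice, and without control replicate 1, 2, 3 or 7; the Gria3 and Gria4 calls were lost without the filter and in control mice alone. Among the lower were Grik1 and the NMDA subunits Grin2a (-1.14, SE 0.19) and Grin3a (-1.04, SE 0.22). Among 8 GABA and glycine receptor genes tested, the glycine receptor subunit Glra1 was called. It ran from 168 to 1321 CPM over mice in VC-1 (median 549) and from 0 to 683 in VC-2 (median 269), and was higher in 15 of 16 mice (1.17, SE 0.19). Of 26 voltage-gated channel genes tested, Cacna2d2 (1.10, SE 0.32), the calcium-activated potassium channel Kcnma1 (0.73, SE 0.14) and the sodium channel Scn1a (0.63, SE 0.16) were higher and Cacna2d3 (-0.86, SE 0.24) and Cacna1d (-0.49, SE 0.16) lower. In acetylcholine receptor genes, 2 of 16 were tested, Chrm2 and Chrm3, and neither was called.

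Below the filter, the fit of all genes with a UMI in the sums called 46 further genes between VC-1 and VC-2, 16 higher and 30 lower; that fit covered 26392 genes, of which 0.235% were called higher and 0.235% lower, 0.47% in all. Among them were Pax2, Mecom and Trhr, higher, and Prph, Creb5, Rxfp1, the thyrotropin receptor Tshr and the substance P receptor Tacr1, lower. These low-count genes were singled out after their values were seen. With VC-1 and VC-2 alone in the fit, 13 of the 46 were called. Pax2, Mecom, Trhr, Prph, Creb5, Rxfp1, Tshr and Tacr1 were among them. In control mice alone 4 of the 46 were called, Creb5, Rxfp1, Pax2 and Tacr1, and Mecom, Trhr, Prph and Tshr were not. When 3 control mice with titles in cx were dropped 7 were called, among them Creb5, Rxfp1, Prph and Tshr. Pax2, Mecom, Trhr and Tacr1 lost their calls without those 3 mice. Creb5 and Rxfp1 were called in each edgeR fit. Chat (-1.10), Slc5a7 (-1.27) and Cartpt (1.63) were not called between VC-1 and VC-2 without the filter (edgeR adjusted p = 0.540, 0.464 and 0.577).

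Against the VE family, 218 genes were higher in VC-1 (14.3%) and 221 lower (14.5%), 28.7% in all, in 19 mice. Fnbp1l, a membrane-bending adaptor, led the rises at 2.93 (SE 0.32), with a median over mice of 164 CPM in VC-1 and 13.1 in VE. The potassium channel Kcnd3 (1.99, SE 0.28), the kinase Camk2a (1.97, SE 0.31), Arhgap6 (1.92, SE 0.35), the sodium channel Scn9a (1.87, SE 0.24), Fbn2 (1.74, SE 0.53), Tmcc3 (1.63, SE 0.25) and the neuregulin receptor Erbb4 (1.62, SE 0.28) followed. Lgr5, a receptor of R-spondins, fell most (-2.67, SE 0.38), at a median of 0 CPM in VC-1 and 167 in VE. Col19a1 (-1.63, SE 0.29), the homeobox factor Mkx (-1.62, SE 0.30), Airn (-1.51, SE 0.20), Ntng1 (-1.45, SE 0.32), Fmn1 (-1.44, SE 0.26), the synaptic vesicle protein Sv2c (-1.42, SE 0.22) and Zfpm2 (-1.42, SE 0.24) also fell. Mbp (0.68, SE 0.22), a myelin gene of oligodendrocytes, was called higher too, beside the higher oligodendrocyte marker level given above; its part in the other calls was not tested. Mitochondrially encoded genes summed to 1406 CPM in VC-1 and 912 in VE, and 1 of the 5 tested was called higher.

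Against the VI family, 208 genes were higher (13.6%) and 209 lower (13.7%), 27.3% in all, in 21 mice. Fnbp1l (2.33, SE 0.30), the mechanosensitive channel Piezo2 (2.12, SE 0.51), Zfhx3 (2.06, SE 0.17), Kcnd3 (2.06, SE 0.28), the calcium channel subunit Cacna2d1 (1.99, SE 0.23), Camk2a (1.96, SE 0.30) and the potassium channel Kcnq5 (1.88, SE 0.26) led. Lgr5 (-2.94, SE 0.36), Col19a1 (-1.76, SE 0.28), Fmn1 (-1.71, SE 0.26), Mkx (-1.69, SE 0.29), Nefh (-1.66, SE 0.27), Sv2c (-1.63, SE 0.21), Syt2 (-1.50, SE 0.19) and the orphan receptor Esrrg (-1.40, SE 0.15) fell.

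Against VM, which entered with 11 mice, 40 genes were higher (2.62%) and 57 lower (3.73%), 6.35% in all. Zfhx3 (1.74, SE 0.21), the receptor kinase Alk (1.39, SE 0.39), Scn9a (1.38, SE 0.29), Cdh13 (1.33, SE 0.22), Tmem163 (1.32, SE 0.33), Tmcc3 (1.25, SE 0.29), Fam19a1 (1.25, SE 0.38) and Fnbp1l (1.21, SE 0.35) rose most. Lgr5 (-2.27, SE 0.45), Mkx (-1.56, SE 0.34), Cep112 (-1.48, SE 0.35), Zfpm2 (-1.31, SE 0.28), Tcf4 (-1.29, SE 0.27), Col19a1 (-1.22, SE 0.35), Sparcl1 (-1.17, SE 0.23) and Egfem1 (-1.15, SE 0.30) fell most. The VM calls rest on few libraries: 39 of 1265 genes tested were called when the 3 cx control mice were dropped. Without control replicate 6, control replicate 7 or rotarod replicate 5, 63 of 1452, 59 of 1452 and 62 of 1458 were called. Without the filter on low counts, the calls against VE split into 160 higher (0.606%) and 1284 lower (4.87%), 5.47% of 26392 genes in all. Against VI they split into 168 (0.637%) and 1146 (4.34%), 4.98% in all, and against VM into 14 (0.053%) and 113 (0.428%), 0.481% in all. In that fit the median of the 1528 genes moved by -0.46, -0.39 and -0.20 on the log2 scale against VE, VI and VM.

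The transcription factor Zfhx3, known from spinal neurons with long-range projections, was higher in VC-1 than in VE, VI and VM. It ran from 795 to 3518 CPM over mice in VC-1 (median 1628), 683 to 3438 in VC-2 (median 1562), 106 to 1232 in VE (median 688), 208 to 1298 in VI (median 432) and 60.4 to 888 in VM (median 615). VC-1 was higher in 19 of 19 mice against VE, 21 of 21 against VI and 11 of 11 against VM, and it ranked second of the 43 populations after VE-1. The VC-1 and VC-2 ranges overlapped almost fully. Gria1 ran from 634 to 3295 CPM in VC-1 (median 1072), against medians of 876 in VC-2, 522 in VE, 384 in VI and 828 in VM. Gria1 and the ephrin receptor Ephb1 were the 2 genes called higher in VC-1 in all 4 comparisons, and Fmn1, Grin2a, Slit2 and Sv2c were among the 5 called lower in all 4; the comparisons share the VC-1 sums. Without the filter on low counts, Gria1 alone was called higher in all 4.

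Receptor and channel genes were compared with VE, VI and VM, where 28.7%, 27.3% and 6.35% of all genes tested were called. By direction, these were 14.3% higher and 14.5% lower against VE, 13.6% and 13.7% against VI, and 2.62% and 3.73% against VM. In the fit without the filter they were 0.606% and 4.87%, 0.637% and 4.34%, and 0.053% and 0.428%. Of 26 voltage-gated channel genes tested, 11 were higher and 3 lower against VE (median 0.19, all genes -0.00), 12 and 3 against VI (median 0.25, all genes -0.02) and 5 and 1 against VM (median 0.15, all genes -0.02). Without the filter all 44 were tested, with 11 higher and 9 lower against VE (median -0.26, all genes -0.26), 10 and 10 against VI (median -0.11, all genes -0.26) and 1 and 3 against VM (median -0.09, all genes -0.03). Kcnc2 (1.48, SE 0.20) and Scn3a (1.16, SE 0.19) were higher and Scn8a (-0.65, SE 0.14) and Scn1a (-0.57, SE 0.12) were among the lower against VE. Scn9a, a sodium channel best known in sensory neurons, had a median of 267 CPM over mice in VC-1 and 61.6 in VE, 72.1 in VI and 82.4 in VM, and ranked second of the 43 populations after VC-2. Of 8 GABA and glycine receptor genes tested, 3 were higher and 3 lower against VE, 3 and 1 against VI and 2 and 0 against VM. Gabrb1 (1.25, 1.61 and 0.74) and Gabra2 (0.97, 1.31 and 1.02) were higher in each. Without the filter 22 were tested, with 1 higher and 7 lower against VE (median 0.00, all genes -0.26), 4 and 6 against VI (median 0.04, all genes -0.26) and 0 and 0 against VM. In that fit the Gabra2 calls against VE and VM and the Gabrb1 call against VM were lost. Of 18 glutamate receptor genes tested, 1 was higher and 4 lower against VE, 3 and 2 against VI and 1 and 3 against VM. Gria3 was lower in each (-1.02, -0.91 and -0.69), while it was higher than in VC-2. Without the filter 25 glutamate receptor genes were tested, with 3 higher and 9 lower against VE, 2 and 6 against VI and 1 and 4 against VM. With the filter, the called share of glutamate receptor genes, both directions together, was near that of all genes against VE and VI. It was larger than that of all genes against VM.

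**Figure D3:**
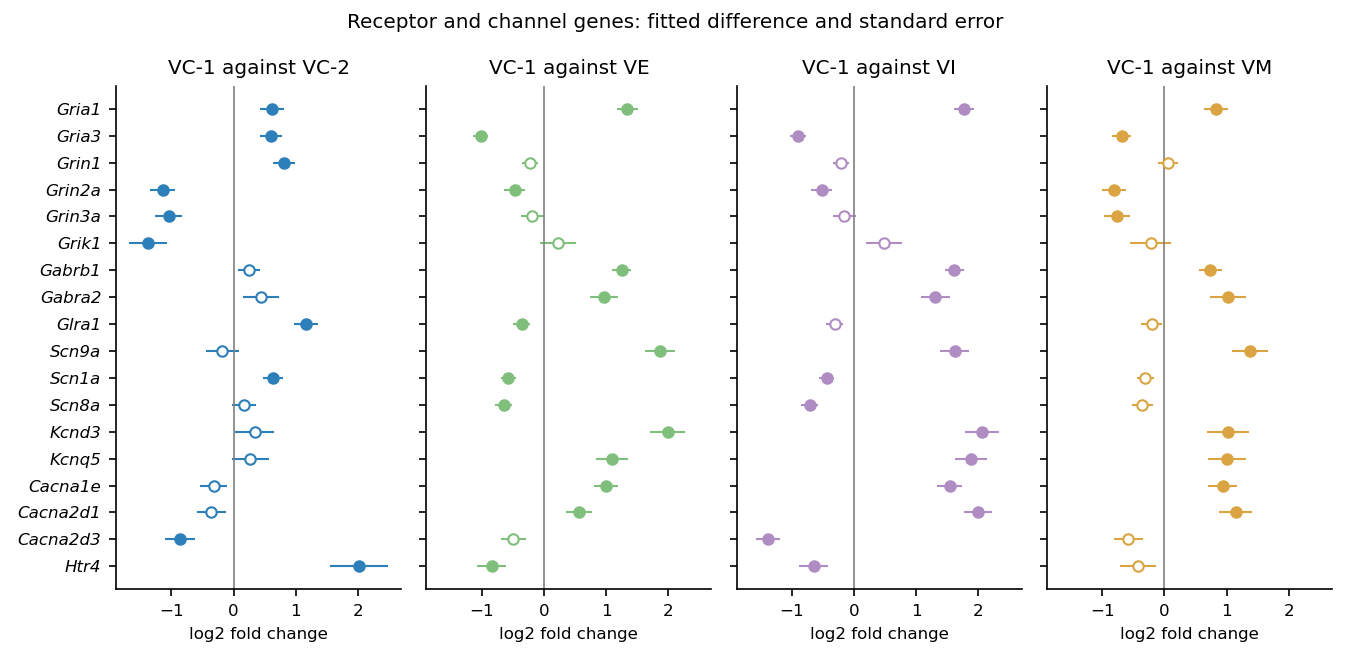
Log2 fold change of VC-1 against VC-2, VE, VI and VM (4 panels) for 18 receptor and channel genes; bars are standard errors, filled points are called genes and open points are not. Gria1 lies right of 0 in every panel, Grin2a left of 0 in every panel, and Gria3 and Scn1a change side between VC-2 and the VE and VI families.

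In the lists of motor neuron genes, Kcnq5 and Cacna1e, 2 of 5 alpha motor neuron genes tested, were higher in VC-1 than in VE (1.10 and 1.00), VI (1.88 and 1.54) and VM (1.01 and 0.93). Among all genes tested, 14.3% were higher and 14.5% lower against VE, 13.6% and 13.7% against VI, and 2.62% and 3.73% against VM. Without the filter all 16 alpha genes were tested. Then 1 was higher and 2 lower against VE (median -0.31, all genes -0.26), 3 and 2 against VI (median -0.41, all genes -0.26) and 0 and 0 against VM. Among all genes in that fit, 0.606% were higher and 4.87% lower against VE, 0.637% and 4.34% against VI, and 0.053% and 0.428% against VM. The VM calls of Kcnq5 and Cacna1e were lost without the filter and in control mice alone. The Kcnq5 call against VE was lost without the filter. Esrrg, of the gamma list, was lower than in VE (-0.91, SE 0.16) and VI. Fbn2 and Piezo2, of the visceral list, were called higher than in VE and VI, and Fbn2 was below its VC-2 level. The Fbn2 call against VI (adjusted p = 0.0495 by edgeR) was lost by DESeq2, with DESeq2 size factors, without the filter, in control mice alone and without 14 of the mice in turn; the calls of both genes against VE were lost without the filter and in control mice alone. Slit2 was called lower than in VE and VI in every alternative fit that tested it. Its call against VM (adjusted p = 0.0482 by edgeR) was lost without the filter, with at least 5 nuclei a sum, with VC-1 and VM alone, in control mice alone, without the cx mice, without the mouse block and without 17 of the mice in turn. Of 11 neurofilament and axon genes, 5 were higher and 4 lower against VE, 3 and 4 against VI and 0 and 1 against VM, with the synaptotagmin Syt1 (0.90, SE 0.16, against VE) higher and Syt2 (-1.17, SE 0.20) lower. Rora, 1 of 12 measured dorsal lineage factors and the only one tested, was lower against VE (-0.56, SE 0.13), VI (-0.48, SE 0.12) and VM (-0.55, SE 0.15).

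By its title, the study also profiled activity during behaviour. VC-1 made up 4.57% ± 1.44 (SD, n = 9) of placed neurons in control mice. It made up 4.77% ± 2.70 (n = 10) in the formalin group and 3.25% ± 1.75 (n = 5) in the rotarod group. Control mice ran from 2.68% to 6.35% (median 4.15), formalin from 1.205% to 9.86% (median 4.21) and rotarod from 1.18% to 5.64% (median 3.28), and the groups overlapped. By two-sided exact permutation over mice the differences gave p = 0.847 for formalin against control, 0.152 for rotarod against control and 0.273 for formalin against rotarod. By nuclei of both VC populations, VC-1 made up 57.4% ± 7.80 (n = 9) in control mice, 65.9% ± 15.6 (n = 9) after formalin and 48.2% ± 17.1 (n = 5) after the rotarod, over mice with at least 3 VC nuclei. The exact permutation p was 0.163, 0.237 and 0.0819 in the same order. With 1 mouse left out at a time, it ran from 0.0254 to 0.294 for formalin against control. It ran from 0.0233 to 0.229 for formalin against rotarod, and both were lowest without formalin replicate 5. For rotarod against control in the share of placed neurons, the exact permutation p ran from 0.0448, without rotarod replicate 5, to 0.372. Median UMIs per VC-1 nucleus averaged 3131 ± 944 (n = 9), 2888 ± 974 (n = 8) and 3085 ± 1090 (n = 4), with exact permutation p of 0.610, 0.951 and 0.739. None of the 12 tests passed adjustment over all 12, where the lowest adjusted p was 0.488.

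Few UMIs of activity genes were counted in VC-1, and their level in other populations is not given here. The 23 genes of the list, which neurons switch on within minutes of firing, gave 41 UMIs in the 181 nuclei, 13 of them from Npas4, 6 from Egr1, 5 from Fos, 2 from Nr4a1 and 0 from Arc and Junb. Fos had 1 UMI in control, 3 in formalin and 1 in rotarod nuclei. The list stood at 25.1 ± 31.4 CPM (n = 9; lowest 0, median 29.1, highest 97.0) in control, 85.8 ± 115 (n = 8; 0, 51.4 and 341) after formalin and 59.0 ± 77.3 (n = 4; 0, 36.7 and 163) after the rotarod. Mice at 0 occurred in every group. The exact permutation p was 0.127 for formalin against control, 0.299 for rotarod against control and 0.808 for formalin against rotarod. Without formalin replicate 8 the first difference fell from 60.8 to 24.3 CPM, and without rotarod replicate 4 the second was -0.639 CPM. No difference in activity genes between conditions was detected in VC-1.

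**Figure D4:**
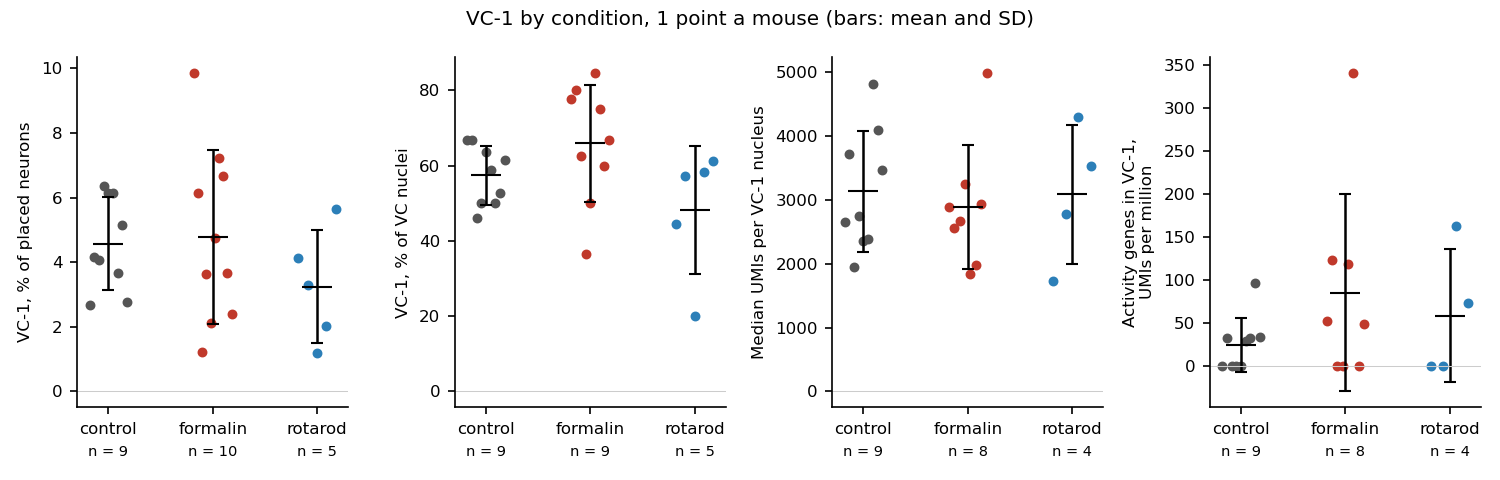
Share of placed neurons, share of VC nuclei, median UMIs per VC-1 nucleus and level of 23 activity genes in VC-1, by condition, 1 point a mouse (linear axes). Black marks are the mean and SD. The 3 groups overlap in every panel, and 1 formalin mouse stands at 341 CPM of activity genes.

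Across genes, 448 were tested between conditions within VC-1, in 9 control, 8 formalin and 4 rotarod mice, and edgeR called 0 (0%) in each of the 3 comparisons. At an unadjusted p under 0.05 there were 32, 21 and 26 genes, and DESeq2 called 0 with 35, 24 and 29. The genes of smallest p for formalin against control were Inpp4b, a lipid phosphatase (-1.46, SE 0.36, adjusted p = 0.142 by edgeR), Ntm (-0.85, SE 0.22), Srrm2 (0.68, SE 0.23), Kcnd3 (-1.46, SE 0.49) and Ppp1r9a (0.96, SE 0.33). Inpp4b ran from 312 to 2040 CPM over control mice (median 878), from 56.8 to 529 over formalin mice (median 257) and from 411 to 879 over rotarod mice (median 845). Control and formalin mice overlapped between 312 and 529 CPM. It was called without control replicate 6 and without the filter on low counts. For rotarod against control they were Kmt2a (0.87, SE 0.28), Pcdh15 (0.90, SE 0.32), Cntn4 (-1.15, SE 0.42), Lrfn5 (-0.83, SE 0.31) and B3galt1 (-0.99, SE 0.37), and for formalin against rotarod Fam19a2 (-1.46, SE 0.38), Snhg11 (0.78, SE 0.25), Rgs7 (1.06, SE 0.37), Ash1l (1.06, SE 0.38) and the predicted gene Gm37376 (-1.27, SE 0.46). The comparisons share groups of mice with each other.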

How the data were processed

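Nuclei of the lumbar cord were profiled by Drop-seq in 24 mice, per the labels' protocols. What the authors deposited are raw counts of UMIs (32962 genes, 18000 barcodes, 750 a mouse) and a cell type for every barcode. The submitters' processing notes name mm10 and GRCm38; their aligner and annotation were not known from the labels. The deposited labels were made from the same counts, and doublets were not called again.

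Counts of each population were summed per mouse where it had at least 3 nuclei, and mice without a VC-1 sum were left out of every population. Sums of VC-1, VC-2 and the VE, VI and VM families entered 1 fit with the mouse as a block, in edgeR 4.0.16 (quasi-likelihood test, TMM, filterByExpr, R 4.3.3), and conditions were fitted within VC-1. P-values were adjusted by Benjamini-Hochberg over all genes tested and called under 0.05. The standard error is the fold change divided by the square root of the F statistic, an approximation. CPM is UMIs per 1000000 UMIs of the same nuclei. Exact permutation of mice, two-sided, tested shares, depth and activity genes (scipy 1.17.1), with 12 tests adjusted together. Intervals are 95% and cover counting error only. The labels do not say more of how mice were paired or batched. DESeq2 1.42.0, other size factors, filters, nucleus minimums, subsets of mice and thinning were the alternatives. The script was tested on simulated data.

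In each population comparison the text names the 8 largest rises and 8 largest falls among called genes with at least 50 CPM in the higher population, predicted genes left out, all cholinergic genes and up to 4 called genes a list and direction. For conditions with fewer than 5 calls it names the 5 genes of smallest p. The members and lists were chosen with earlier results of these data known. Low-count genes were singled out after their values were seen. Slc18a3 is not analysed here, and some genes that the rule names are not reported here. Promoters are from RefSeq on GRCm38.p6 and gene positions from GENCODE M21.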

Additional observations from a re-analysis of the deposited data

Results flagged for a closer look

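In 12 groups of mice examined for a mouse far from the others, 3 were found; chance gives about 1 in 20 groups. Among 9 control mice, control replicate 8 had 97.0 CPM of activity genes in VC-1, and the next highest had 33.7. Among 8 formalin mice, formalin replicate 8 had 341 CPM of activity genes, and the next highest had 124. Formalin replicate 10 had a median of 4988.5 UMIs per VC-1 nucleus, and the next highest of 8 formalin mice had 3255.5.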

How the results depend on the processing

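Counts of called genes, and of genes tested (1528 in the main population fit), depended on which sums entered the fit. The causes of these changes were not tested. With VC-1 and 1 other population alone, calls were 28 of 326 genes tested against VC-2 and 249 of 853 against VE. They were 227 of 687 against VI and 32 of 948 against VM. In control mice alone they were 54, 191, 224 and 15 of 1786, in the same order. With nuclei thinned to 500 UMIs they were 8, 15, 24 and 5 of 63. Without the filter on low counts they were 1444 against VE and 1314 against VI, of 26392 tested. That filter left out, 1 gene of 16762 was called for formalin against control. With the 3 cx control mice dropped, 39 of 1265 were called against VM. Leaving out 1 mouse at a time gave 91 to 126 calls against VC-2, 368 to 469 against VE, 364 to 448 against VI, 59 to 102 against VM, 0 to 1 for formalin against control and 0 for the other condition comparisons.

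Of the named genes, 17 of 38 kept their call against VC-2 in every alternative fit that tested them. These counts were 28 of 55 against VE, 29 of 43 against VI and 5 of 31 against VM (Zfhx3, Lgr5, Cep112, Sparcl1 and Gria1). A fit that did not test a gene was not counted as a loss, and the thinned fit tested 63 genes. Without the filter, Dync1h1 (-0.01545) and Ank3 (-0.0572) against VE and Grik2 (-0.00137) against VI changed sign, where the median of all genes moved by -0.46 and -0.39. For low-count genes between the VC populations, alternatives chosen after seeing the data called 13 genes below the filter with both VC populations alone, 5 in control mice, 7 without the cx mice and 19 with formalin pairs merged, of which 13, 4, 7 and 17 were among the 46. DESeq2 gave an adjusted p for 4 of the 46 and called 2.

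The formalin minus rotarod difference in activity genes was -103.3 CPM with mice of at least 1 nucleus. The formalin minus control share of placed neurons was -0.154 points without the cx mice and -0.620 as a share of all neuronal nuclei. Median UMIs differed by 253 for formalin and 450 for rotarod against control without the cx mice. Leaving out 1 mouse at a time, in the order formalin against control, rotarod against control and formalin against rotarod, activity genes differed by 24.3 to 73.0, -0.639 to 53.6 and -9.64 to 61.4 CPM. The share of placed neurons differed by -0.364 to 0.598, -1.92 to -0.802 and 0.956 to 2.12 points, the share of VC nuclei by 6.18 to 12.2, -12.4 to -2.06 and 10.6 to 21.3 points, and median UMIs by -543 to -33.2, -449 to 403 and -646 to 206.

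Formalin and rotarod mice share replicate numbers. Deviations of same-numbered mice from their group means correlated at -0.028, -0.011, -0.0475 and 0.0359 over 271 genes. With so few nuclei a mouse, these values cannot tell whether the numbers pair mice. With the replicate block, 0 of 271 genes were called. The 181 nuclei held a median of 3038 UMIs, and no cholinergic gene passed the filter.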
